A study of Homo sapiens with 3 samples.

Results

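Epithelial cells hold together through E-cadherin junctions, whereas mesenchymal cells carry N-cadherin and a vimentin filament network, and a small set of transcription and splicing factors moves cells between these states. Described here are 10 genes of that switch among the 60554 genes of the count table, chosen by symbol. Of these, 4 mark the epithelial side, namely CDH1, CDH3, ESRP1 and ESRP2. The other 6 mark the mesenchymal side, namely CDH2, VIM, ZEB1, ZEB2, SNAI2 and TWIST1. The set was drawn up with earlier results of the same libraries in view, in which VIM and CDH2 were among the genes highest relative to the control. The members' differences between libraries are therefore given as a description, with no test.

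RNA was sequenced from KYSE30, an established line of human esophageal squamous cell carcinoma. There were 2 stable lines made with lentiviral pLKO.1-blast vectors carrying different shRNAs against the small nucleolar RNA SNORD12B, and 1 control line. Per the labels, the control has the genotype "vector", while the protocol describes a scrambled shRNA with no target. All lines grew in RPMI-1640 with 10% serum, and virus was left on the cells for 24 hours before 2 weeks in 5 ug/mL blasticidin. Each line gave 1 library, so no culture was repeated, and whether a line is a pool or a clone was not given in the sources used here. In bulk RNA, more cells that express a gene and more RNA per cell cannot be told apart.

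Total counts were 15146805 in the shRNA 1-labelled library, 17336936 in the shRNA 2-labelled library and 15473922 in the control. The target SNORD12B had 15 counts in the shRNA 1-labelled library, 1 in the shRNA 2-labelled library and 7 in the control. The count in the shRNA 1-labelled library was thus not below the control, at a ratio of 2.165 (exact interval of counting error 0.8307 to 6.275). That interval includes equality, so so few counts do not show in which direction the level differed. In the shRNA 2-labelled library the ratio was 0.1262 (0.0028 to 0.982), from a single count. SNORD12B has only 91 exonic bases, and with so few counts neither ratio is taken as a measure of knockdown. The host gene of SNORD12B is ZFAS1. It stood at 14.2 and 9.49 CPM (counts scaled to library size) in the shRNA 1- and shRNA 2-labelled libraries. In the control it stood at 12.1 CPM. The libraries are therefore called by their labels. Of 9 squamous markers, KRT5 had at most 3 counts in any library and the other 8 passed the filter on low counts. All 8 lay below the control in the shRNA 1-labelled library, the median log2 ratio being -0.99, and 7 did so in the shRNA 2-labelled library, with a median of -0.56. The 9 markers summed to 643.2 and 1029 CPM in the shRNA 1- and shRNA 2-labelled libraries, against 1394 CPM in the control. The part of this difference in the results on the members was not tested.

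E-cadherin (CDH1) and P-cadherin (CDH3) are calcium-dependent adhesion proteins of epithelial junctions, and P-cadherin is typical of basal cell layers. ESRP1 and ESRP2 are RNA-binding proteins that keep epithelial splice forms of genes such as FGFR2 and CD44. ZEB1 and ZEB2 are zinc finger repressors that bind E-box elements in the promoters of CDH1 and other epithelial genes. SNAI2 (Slug), another such zinc finger repressor, and TWIST1, a basic helix-loop-helix factor, act on the same side, and SNAI2 is also normally present in basal keratinocytes. In epithelial cells ZEB1 and ZEB2 messages are held down by microRNAs of the miR-200 family and by miR-205. Their mature sequences, from RefSeq on GRCh38.p14, are shown because the RNAs that host 2 of these loci were counted, and the seed (bases 2 to 8) is in capitals.
hsa-miR-200c-3p: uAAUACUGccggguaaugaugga
hsa-miR-200b-3p: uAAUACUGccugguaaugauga
hsa-miR-429: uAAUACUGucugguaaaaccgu
hsa-miR-141-3p: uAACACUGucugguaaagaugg
hsa-miR-200a-3p: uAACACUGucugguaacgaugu
hsa-miR-205-5p: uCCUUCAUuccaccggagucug
The microRNAs fall into groups by seed: miR-200c, miR-200b and miR-429 share AAUACUG, miR-141 and miR-200a share AACACUG, and miR-205 has CCUUCAU. The miR-200c and miR-141 sequences lie on chromosome 12, at chr12:6963742-6963764 and chr12:6964155-6964176 on the plus strand, and miR-205 at chr1:209432166-209432187 on the plus strand. The host RNA MIR200CHG had only 13, 32 and 15 counts in the shRNA 1- and shRNA 2-labelled libraries and in the control. MIR205HG stood at 163 and 188.5 CPM in the shRNA 1- and shRNA 2-labelled libraries, against 273.6 CPM in the control, and was thus lower in both. Gene counts do not measure the mature microRNAs.

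The promoters of the 3 mesenchymal members furthest above the control in both shRNA libraries are shown with their E-boxes (CANNTG), the kind of element that ZEB, Snail and Twist proteins bind, and GC boxes (GGGCGG), bound by Sp1. Each window runs from 250 bases before to 50 bases after a RefSeq transcript start on GRCh38.p14, the start nearest to that in the count table where there were several. Matches to either motif on either strand are in capitals. The VIM window is chr10:17227991-17228290 on the plus strand, the CDH2 window chr18:28177081-28177380 on the minus strand and the ZEB1 window chr10:31318167-31318466 on the plus strand.
VIM: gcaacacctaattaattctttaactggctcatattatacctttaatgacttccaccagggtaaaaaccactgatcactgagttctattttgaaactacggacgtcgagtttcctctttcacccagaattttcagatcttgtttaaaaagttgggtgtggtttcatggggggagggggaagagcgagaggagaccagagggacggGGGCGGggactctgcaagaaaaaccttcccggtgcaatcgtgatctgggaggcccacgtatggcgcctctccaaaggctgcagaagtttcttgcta
CDH2: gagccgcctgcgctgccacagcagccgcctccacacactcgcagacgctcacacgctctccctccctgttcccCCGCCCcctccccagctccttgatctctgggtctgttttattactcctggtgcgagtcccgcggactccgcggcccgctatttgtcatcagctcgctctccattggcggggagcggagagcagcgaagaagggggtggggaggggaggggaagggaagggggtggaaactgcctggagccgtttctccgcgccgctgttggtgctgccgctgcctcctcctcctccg
ZEB1: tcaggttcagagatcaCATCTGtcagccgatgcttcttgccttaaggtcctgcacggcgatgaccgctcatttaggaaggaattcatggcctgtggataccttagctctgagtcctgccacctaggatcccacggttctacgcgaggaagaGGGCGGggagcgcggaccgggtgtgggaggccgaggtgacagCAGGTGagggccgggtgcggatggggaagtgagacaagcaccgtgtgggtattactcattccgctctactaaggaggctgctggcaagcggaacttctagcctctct
The ZEB1 window held 2 E-boxes, at positions -234 and -57 from the start, and the second reads CAGGTG, the form bound by ZEB and Snail proteins. The windows of VIM and CDH2 held no E-box, and each of the 3 windows held 1 GC box. Among all 35116 windows of that length, 68.7% held an E-box, 20.6% held CAGGTG or its reverse complement and 45% held a GC box. CAGGTG is itself an E-box, so those shares overlap. A match is one of letters only, and no match says only that the letters are not in the window. Windows were found for 4 of the 10 members, and that of ZEB2, the fourth, is not shown because the gene was barely counted.

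Vimentin, the type III filament protein of mesenchymal cells, showed the widest difference among the members. VIM (ENSG00000026025.13, hg38 chromosome 10, 17228259 to 17237593, plus strand) stood at 67.3 CPM in the shRNA 1-labelled library and 17.4 CPM in the shRNA 2-labelled library, against 4.75 CPM in the control. These levels rest on 1024 and 303 counts in the shRNA 1- and shRNA 2-labelled libraries and 73 in the control. The ratio to the control was 14.2 for the shRNA 1-labelled library (95% exact interval 11.2 to 18.2) and 3.67 for the shRNA 2-labelled library (2.83 to 4.8). Intervals here and below cover counting error only. The intervals of the libraries do not overlap, and the shRNA 1-labelled library lay 1.94 log2 units above the shRNA 2-labelled library. The mean log2 ratio of the shRNA pair was 2.82 ± 1.37 (SD, n = 2). Among all 17801 genes that passed the filter, the level of VIM per exonic length (TPM) lay at percentile 77.5 in the shRNA 1-labelled library, 45.6 in the shRNA 2-labelled library and 20.9 in the control.

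Exons of other genes cover 25.4% of the exonic bases of VIM on the opposite strand. The partners were VIM-AS1, with 327, 106 and 32 counts in the shRNA 1- and shRNA 2-labelled libraries and the control, and ENSG00000234961, with 284, 116 and 25 counts in the same order of libraries. Both antisense genes thus kept the order of VIM. The kit was not given in the sources used here, so reads of VIM and of its antisense genes cannot be told apart with certainty where they overlap.

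N-cadherin (CDH2), the adhesion protein that takes the place of E-cadherin in mesenchymal cells, followed the same order at a lower level. CDH2 (ENSG00000170558.8, chromosome 18, 27950966 to 28177446, minus strand) stood at 10.2 CPM in the shRNA 1-labelled library and 4.71 CPM in the shRNA 2-labelled library, against 1.56 CPM in the control. Counts were 155 and 82 in the shRNA 1- and shRNA 2-labelled libraries and 24 in the control. Ratios to the control were 6.52 (4.23 to 10.5) for the shRNA 1-labelled library and 3.02 (1.9 to 4.97) for the shRNA 2-labelled library. An opposite-strand gene, ENSG00000227279, covers 2.75% of CDH2 exonic bases and had 8 and 4 counts in the shRNA 1- and shRNA 2-labelled libraries and 3 in the control.

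ZEB1 was scarce in every library. ZEB1 (ENSG00000148516.21, chromosome 10, 31318495 to 31529814, plus strand) had 54 and 52 counts in the shRNA 1- and shRNA 2-labelled libraries, against 18 in the control. These are 3.55 and 2.99 CPM in the shRNA 1- and shRNA 2-labelled libraries, against 1.17 CPM in the control. The ratios of 3.03 (1.75 to 5.49) for shRNA 1 and 2.55 (1.47 to 4.63) for shRNA 2 differ little between the shRNA libraries, and their intervals overlap widely. Per length, ZEB1 reached 1.27 and 1.05 TPM in the shRNA 1- and shRNA 2-labelled libraries, against 0.401 TPM in the control. ZEB1-AS1, which shares 4.23% of ZEB1 exonic bases on the opposite strand, stood at 6.77 and 8.97 CPM in those libraries, against 4.3 CPM in the control.

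ZEB2 (ENSG00000169554.16, chromosome 2, 144384081 to 144524583, minus strand) had 0 counts in the shRNA 1-labelled library, 1 in the shRNA 2-labelled library and 0 in the control. A count of 0 allows up to 3 counts, which is 0.197 CPM in the shRNA 1-labelled library and 0.195 CPM in the control. No fold is given for it. Of the 2 ZEB repressors, ZEB1 was thus the form measured here, and ZEB2 was the 1 member of 10 that did not pass the filter.

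**Figure D1:**
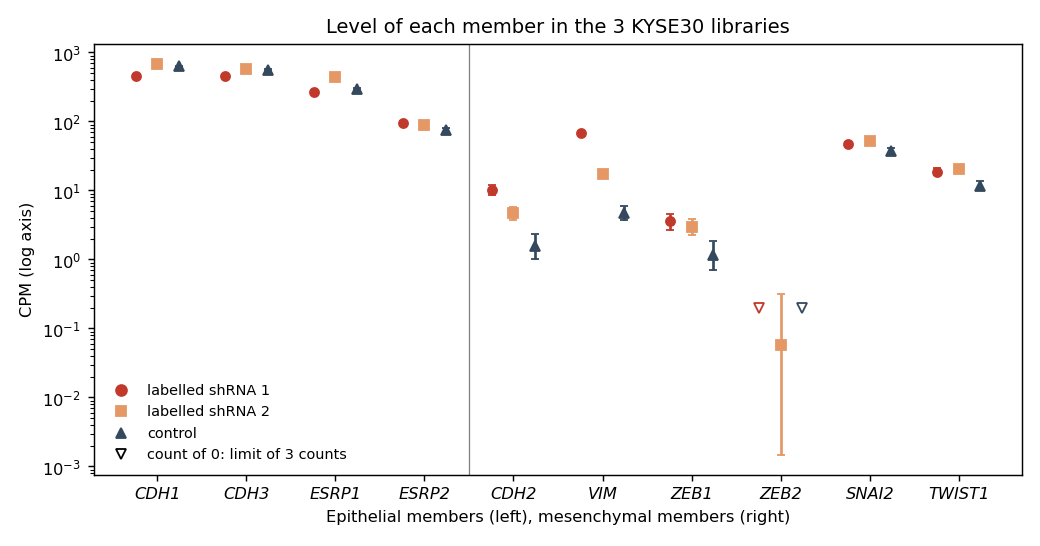
CPM (log axis) of the 10 members in the shRNA 1- and shRNA 2-labelled libraries and in the control, with 95% exact Poisson intervals as bars and the limit that 3 counts give where the count was 0. VIM stands at 67.3 CPM in the shRNA 1-labelled library, against 4.75 CPM in the control, while CDH1, CDH3 and ESRP1 stand above 200 CPM in every library.

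SNAI2 and TWIST1 were the mesenchymal-side factors already well counted in the control line. SNAI2 (ENSG00000019549.8, chromosome 8, 48917690 to 48921740, minus strand) stood at 47.5 and 51.9 CPM in the shRNA 1- and shRNA 2-labelled libraries, against 37.6 CPM in the control. Its ratios were 1.27 (1.13 to 1.42) for shRNA 1 and 1.38 (1.24 to 1.54) for shRNA 2. TWIST1 (ENSG00000122691.12, chromosome 7, 19020991 to 19117672, minus strand) stood at 18.8 and 20.6 CPM in the shRNA 1- and shRNA 2-labelled libraries, against 11.8 CPM in the control, with ratios of 1.6 (1.32 to 1.93) for shRNA 1 and 1.75 (1.46 to 2.1) for shRNA 2. For both genes the shRNA libraries lay close together and above the control, with SDs between the pair of 0.09 log2 units each. Whether independent cultures of the control would spread as little was not tested. Per length, SNAI2 exceeded TWIST1 in each library, by 2.25 and 2.25 times in the shRNA 1- and shRNA 2-labelled libraries and by 2.84 times in the control. Opposite-strand ENSG00000232821 covers 6.94% of TWIST1 exonic bases and had 15 and 2 counts in the shRNA 1- and shRNA 2-labelled libraries and 5 in the control, whereas no exon of another gene overlaps SNAI2.

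The epithelial cadherins did not share a direction between the shRNA libraries. CDH1 (ENSG00000039068.18, chromosome 16, 68737225 to 68835548, plus strand) stood at 448.9 CPM in the shRNA 1-labelled library and 678 CPM in the shRNA 2-labelled library, against 632.7 CPM in the control. Its ratios were 0.71 (0.688 to 0.732) for shRNA 1 and 1.07 (1.04 to 1.1) for shRNA 2. CDH3 (ENSG00000062038.13, chromosome 16, 68636189 to 68722616, plus strand) stood at 455 and 575.3 CPM in the shRNA 1- and shRNA 2-labelled libraries, against 556.3 CPM in the control, with ratios of 0.818 (0.792 to 0.844) for shRNA 1 and 1.03 (1.005 to 1.065) for shRNA 2. Both cadherins were thus lowest in the shRNA 1-labelled library, the one with the most VIM and CDH2. The control and the shRNA 2-labelled library differed by less than the 2 shRNA libraries did, with SDs between the pair of 0.42 log2 units for CDH1 and 0.24 for CDH3.

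The splicing regulators behaved otherwise. ESRP1 (ENSG00000104413.15, chromosome 8, 94641074 to 94707466, plus strand) stood at 266.9 CPM in the shRNA 1-labelled library and 436.4 CPM in the shRNA 2-labelled library, against 296.5 CPM in the control. Its ratios were 0.9 (0.863 to 0.939) for shRNA 1 and 1.47 (1.42 to 1.53) for shRNA 2, so that it was highest in the shRNA 2-labelled library. ESRP2 (ENSG00000103067.11, chromosome 16, 68229111 to 68238102, minus strand) stood at 95.5 and 88 CPM in the shRNA 1- and shRNA 2-labelled libraries, against 74.9 CPM in the control, with ratios of 1.27 (1.18 to 1.38) for shRNA 1 and 1.18 (1.09 to 1.27) for shRNA 2. ESRP2 alone of the epithelial members lay above the control in both shRNA libraries by more than counting error and had its highest level in the shRNA 1-labelled library. Per length, ESRP1 exceeded ESRP2 by 3.19 and 5.66 times in the shRNA 1- and shRNA 2-labelled libraries, against 4.52 times in the control.

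**Figure D2:**
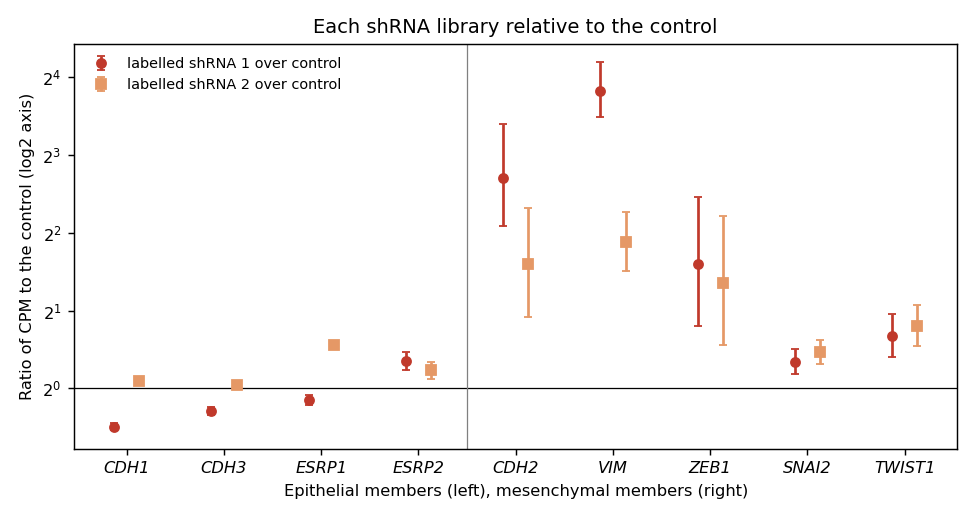
Ratio of the CPM in each shRNA library to that in the control (log2 axis) for the 9 members that passed the filter, with 95% exact conditional intervals of counting error. All 5 mesenchymal members lie above 1 in both libraries, from 1.27 for SNAI2 to 14.2 for VIM in the shRNA 1-labelled library, while the epithelial members lie between 0.71 and 1.47.

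Of the 10 members, 9 passed the filter on low counts, and each of these had at least 10 counts in the control by itself. Across the 4 epithelial members the median log2 ratio was -0.22 in the shRNA 1-labelled library and 0.17 in the shRNA 2-labelled library. Across the 5 mesenchymal members that passed, it was 1.5 in the shRNA 1-labelled library and 1.26 in the shRNA 2-labelled library, beside 0.01 and -0.002 for all tested genes in those libraries. At least 2-fold higher (a log2 ratio of 1 or more) in the shRNA 1-labelled library were VIM, CDH2 and ZEB1, or 3 of the 9, where 3.74% of all tested genes were. The same 3 members were at least 2-fold higher in the shRNA 2-labelled library, where 2.98% of all tested genes were. No member was at least 2-fold lower, where 5.58% and 3.46% of tested genes were so in the shRNA 1- and shRNA 2-labelled libraries. The comparisons share the control library, and the set was chosen with these values known, so nothing further is read from these counts. In the edgeR quasi-likelihood test of both shRNA lines against the control, 0% of genes were called in either direction.

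Levels per length give the order of the members within a library. In the control the order ran from CDH1 at 303.5 TPM through CDH3, ESRP1, SNAI2, ESRP2, TWIST1, VIM and CDH2 to ZEB1 at 0.401 TPM and ZEB2 at 0. The shRNA 2-labelled library had the same order, with CDH1 at 334.9 TPM. In the shRNA 1-labelled library, VIM at 41.9 TPM stood above TWIST1 at 28.6 TPM, and CDH3 at 225.3 TPM stood level with CDH1 at 224.4 TPM. By counting intervals, the neighbours that could not be told apart were CDH3 and CDH1 in the shRNA 1-labelled library, CDH3 and ESRP1 in the shRNA 2-labelled library and CDH2 and ZEB1 in the control. The epithelial members thus stayed above VIM, CDH2 and ZEB1 in each of the 3 libraries.

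Within each library E-cadherin message exceeded N-cadherin message many times over. The ratio of CDH1 to CDH2 in TPM was 35.3 (30.1 to 41.7) in the shRNA 1-labelled library and 115.2 (92.8 to 145) in the shRNA 2-labelled library, against 324.5 (218 to 506.7) in the control. These intervals do not overlap. The ratio of CDH1 to VIM was 5.36 and 31.3 in the shRNA 1- and shRNA 2-labelled libraries, against 107 in the control. The ratio of ESRP1 to ZEB1 was 133.4 and 259 in the shRNA 1- and shRNA 2-labelled libraries, against 449 in the control. Summed over members, epithelial TPM exceeded mesenchymal TPM 4.72 and 8.16 times in the shRNA 1- and shRNA 2-labelled libraries, against 11.2 times in the control. The mesenchymal sum was 142.4 and 115 TPM in the shRNA 1- and shRNA 2-labelled libraries, against 70.1 TPM in the control. SNAI2 made up 45.2% and 60.4% of that sum in the shRNA 1- and shRNA 2-labelled libraries, against 69.6% in the control. VIM made up 29.4% and 9.31% in the shRNA 1- and shRNA 2-labelled libraries, against 4.04% in the control.

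**Figure D3:**
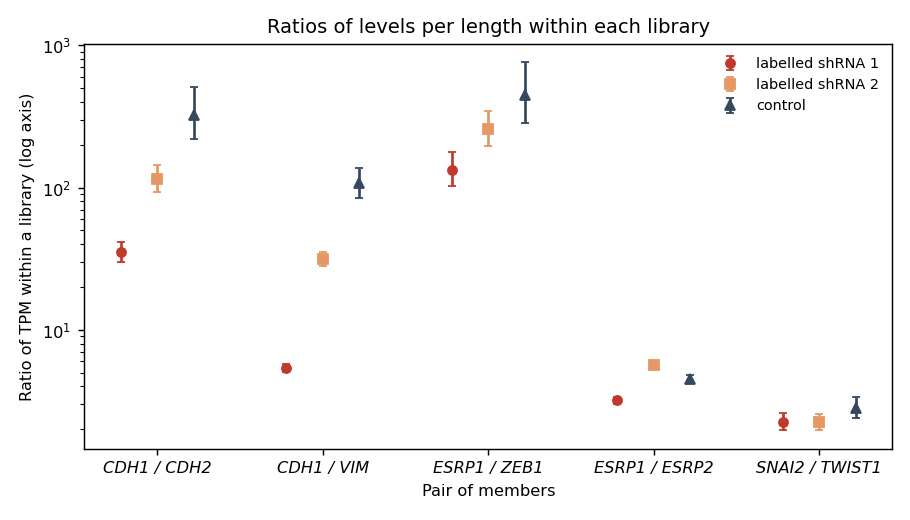
Ratios of TPM between pairs of members within each library (log axis), with 95% exact conditional intervals of counting error. The ratio of CDH1 to CDH2 is 35.3 in the shRNA 1-labelled library, 115.2 in the shRNA 2-labelled library and 324.5 in the control, while the ratio of SNAI2 to TWIST1 stays between 2.25 and 2.84.

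Position was not used to choose the members. Of the epithelial members, 3 lie in a stretch of 606.4 kb on chromosome 16, with ESRP2 398.1 kb from CDH3 and CDH3 14.6 kb from CDH1. The other 9 tested genes there were taken without genes whose exons overlap a member on either strand. Their median log2 ratio was 0.18 (from -0.57 to 0.71) in the shRNA 1-labelled library and -0.17 (from -0.73 to 0.65) in the shRNA 2-labelled library. Both medians have the sign opposite to that of CDH1 and CDH3 in the same library, but the 9 genes spanned both signs in each. Whether position plays a part was not tested. ENSG00000260798, which covers 5.62% of CDH1 exonic bases on the opposite strand, had 738 and 1278 counts in the shRNA 1- and shRNA 2-labelled libraries and 1064 in the control. Its ratios to the control, 0.70 and 1.06, were close to the 0.71 and 1.07 of CDH1, and 61.7% of its own bases are shared with CDH1. As for VIM, reads of a member and of an opposite-strand gene cannot be told apart with certainty where they overlap. ENSG00000260798 is therefore not read as a gene that follows CDH1 by itself. CDH3-AS1, which covers 11.1% of CDH3 on the opposite strand, had 479 and 653 counts in the shRNA 1- and shRNA 2-labelled libraries and 544 in the control. ESRP2 is overlapped on 2.68% of its bases by NFATC3, which stood at 41 and 38.8 CPM in the shRNA 1- and shRNA 2-labelled libraries, against 40.9 CPM in the control, and on the same strand by ENSG00000262160, with 394 and 508 counts in the shRNA 1- and shRNA 2-labelled libraries and 443 in the control. ENSG00000276151 (within ESRP2), ZEB2-AS1 and ENSG00000275372 (both opposite ZEB2) had 0 counts in every library.

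Other genes of the switch were taken from 11 lists, with 107 genes in all, of which 88 were tested. Of these, 0 were called higher and 0 lower by edgeR's quasi-likelihood test over all genes, beside 0% of all genes. At an unadjusted p under 0.05 in that test, 0 were higher and 2 were lower, namely TNC and FGFR2. Over all 17801 tested genes the same threshold gave 73 higher and 164 lower. Together these are a smaller share than the 0.05 that such a threshold gives where nothing differs. The test thus called few genes of any kind, and the lack of a call does not show that a level was unchanged.

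Structural epithelial genes had medians over 19 tested genes of -0.08 in the shRNA 1-labelled library and 0.19 in the shRNA 2-labelled library. Of the 19, 15 lay below the control in the shRNA 1-labelled library, whereas 14 lay above it in the shRNA 2-labelled library. Their log2 ratios ran from -1.36 to 0.49 in the former and from -0.18 to 0.535 in the latter. The genes named next were taken by mean log2 ratio, which can pass over genes with opposite directions in the shRNA libraries. The tight junction gene CLDN1 stood apart in the shRNA 1-labelled library, at 128.9 CPM there and 377.5 CPM in the shRNA 2-labelled library, against 331 CPM in the control. TJP1, which encodes the scaffold protein ZO-1, stood at 132.3 and 132.9 CPM in the shRNA 1- and shRNA 2-labelled libraries, against 94.5 CPM in the control. PKP3, a desmosomal plakophilin, and MAL2, an apical transport protein, had mean log2 ratios of 0.34 ± 0.20 and 0.28 ± 0.13 (SD, n = 2). For the catenins and an actin linker of cadherin junctions, the median over 5 genes was -0.25 in the shRNA 1-labelled library. There 5 of 5 lay below the control. In the shRNA 2-labelled library the median was 0.06, and 3 of 5 lay above the control. Among them, CTNND1 (p120-catenin) stood at 612.6 and 871.5 CPM in the shRNA 1- and shRNA 2-labelled libraries, against 786.8 CPM in the control, and JUP (plakoglobin) at 662 and 975.1 CPM in the shRNA 1- and shRNA 2-labelled libraries, against 861.2 CPM in the control. CTNNA1 and CTNNB1 (alpha- and beta-catenin) had mean log2 ratios of -0.10 ± 0.22 and -0.09 ± 0.02 (SD, n = 2).

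For regulators of the epithelial state the median log2 ratio was -0.71 in the shRNA 1-labelled library, where 11 of 12 lay below the control, and -0.01 in the shRNA 2-labelled library, where 6 of 12 did. TP63, the master factor of squamous basal cells, stood at 80.5 and 135 CPM in the shRNA 1- and shRNA 2-labelled libraries, against 156.6 CPM in the control. GRHL1, a grainyhead factor, stood at 13.8 and 21 CPM in the shRNA 1- and shRNA 2-labelled libraries, against 26.9 CPM in the control. MIR205HG, given above with miR-205, had the lowest log2 ratio of the 12 in the shRNA 2-labelled library, at -0.54. None of the 12 was called.

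Mesenchymal products other than the members showed no common direction. Of 21 listed genes 15 were tested, with medians of 0.02 in the shRNA 1-labelled library, where 8 lay above the control, and -0.05 in the shRNA 2-labelled library, where 6 did. TNC, the matrix protein tenascin-C, stood at 25.2 and 27.6 CPM in the shRNA 1- and shRNA 2-labelled libraries, against 66.7 CPM in the control, with a log2 fold change of -1.34 (SE 0.34) and an adjusted p of 1 from edgeR's quasi-likelihood fit. Fibronectin (FN1) stood at 30 and 55.8 CPM in the shRNA 1- and shRNA 2-labelled libraries, against 62.8 CPM in the control, and fibrillin-1 (FBN1) at 4.47 and 4.94 CPM in the shRNA 1- and shRNA 2-labelled libraries, against 8.14 CPM in the control. TAGLN, an actin-binding protein, had 17 and 47 counts in the shRNA 1- and shRNA 2-labelled libraries, against 15 in the control. COL1A2, THY1, POSTN and CDH11 had no count in any library.

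The other transcription factors of the switch had medians over 6 tested genes of 10 listed of 0.11 in the shRNA 1-labelled library and -0.33 in the shRNA 2-labelled library. FOXC2 had 26 and 25 counts in the shRNA 1- and shRNA 2-labelled libraries, against 12 in the control, and SNAI1 (Snail) 21 and 6 in the shRNA 1- and shRNA 2-labelled libraries, against 9 in the control. TCF3, which encodes the E2A proteins, stood at 115.1 and 120.4 CPM in the shRNA 1- and shRNA 2-labelled libraries, against 155.4 CPM in the control. TCF4 stood at 10.3 and 5.4 CPM in the shRNA 1- and shRNA 2-labelled libraries, against 8.98 CPM in the control. PRRX1 and GSC had no count. Per length, SNAI2 exceeded SNAI1 by 25.4 and 111.2 times in the shRNA 1- and shRNA 2-labelled libraries, against 47.4 times in the control. TWIST1 exceeded TWIST2 by 1.96 and 2.67 times in the shRNA 1- and shRNA 2-labelled libraries, against 1.24 times in the control, and the interval of the control ratio, 0.986 to 1.56, includes equality.

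Corepressors that work with ZEB and Snail proteins lay between -0.29 and 0.20 log2 units of the control in the shRNA 1-labelled library and between -0.35 and 0.14 in the shRNA 2-labelled library, with medians over 8 genes of -0.03 in the shRNA 1-labelled library and -0.12 in the shRNA 2-labelled library. The lowest by mean log2 ratio were KDM1A, HDAC1, CTBP2 and SMARCA4, at -0.21 ± 0.20, -0.17 ± 0.16, -0.16 ± 0.09 and -0.16 ± 0.14 (SD, n = 2). In the TGF-beta pathway, which induces the switch in many epithelia, medians over 9 genes were -0.01 in the shRNA 1-labelled library and 0.04 in the shRNA 2-labelled library. The receptor gene TGFBR1 stood at 74.8 and 94.4 CPM in the shRNA 1- and shRNA 2-labelled libraries, against 55.7 CPM in the control, and TGFBR2 at 99.4 and 130 CPM in the shRNA 1- and shRNA 2-labelled libraries, against 138.9 CPM in the control. The ligand gene TGFB2 stood at 14.3 and 10 CPM in the shRNA 1- and shRNA 2-labelled libraries, against 9.05 CPM in the control, and SMAD2 at 84.5 and 123.5 CPM in the shRNA 1- and shRNA 2-labelled libraries, against 85 CPM in the control.

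Among genes spliced under ESRP control, FGFR2 differed most, while medians over the 5 genes were 0.09 in the shRNA 1-labelled library and 0.02 in the shRNA 2-labelled library. FGFR2 stood at 1.05 and 1.84 CPM in the shRNA 1- and shRNA 2-labelled libraries, against 10.4 CPM in the control, a log2 fold change of -2.83 (SE 0.53) with an adjusted p of 0.499 from edgeR's quasi-likelihood fit. With the likelihood ratio test of edgeR, or without the filter on low counts, FGFR2 was called lower. CD44 stood at 703.6 and 607.4 CPM in the shRNA 1- and shRNA 2-labelled libraries, against 597 CPM in the control, and ARHGEF11 at 80.3 and 78.3 CPM in the shRNA 1- and shRNA 2-labelled libraries, against 75.5 CPM in the control. Counts per gene do not separate splice forms, so the action of the ESRP proteins is not measured here. The 6 other splicing factors listed had medians of 0.03 in the shRNA 1-labelled library and 0.10 in the shRNA 2-labelled library. Of these, MBNL1 stood at 249.5 and 214.2 CPM in the shRNA 1- and shRNA 2-labelled libraries, against 170.7 CPM in the control. RBM47, RBFOX2 and QKI had mean log2 ratios of 0.18 ± 0.37, -0.17 ± 0.18 and 0.10 ± 0.22 (SD, n = 2).

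Relatives of the members were mostly too low to be tested, and those tested did not share a direction. Of 8 other cadherins, CDH4 and CDH5 were tested. CDH4 stood at 9.86 and 6.61 CPM in the shRNA 1- and shRNA 2-labelled libraries, against 5.66 CPM in the control, and CDH5 at 0.855 and 5.23 CPM in the shRNA 1- and shRNA 2-labelled libraries, against 2.6 CPM in the control. Of 6 proteins related to vimentin or linked to it, only SYNM and the linker PLEC were tested. NES, which did not pass the filter, had 0 counts in both shRNA libraries and 11 in the control, the opposite order to VIM. SYNM (synemin) stood at 64 and 42.5 CPM in the shRNA 1- and shRNA 2-labelled libraries, against 56.9 CPM in the control, and PLEC (plectin) at 1955 and 2302 CPM in the shRNA 1- and shRNA 2-labelled libraries, against 1685 CPM in the control. DES, the muscle counterpart of vimentin, had no count.

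**Figure D4:**
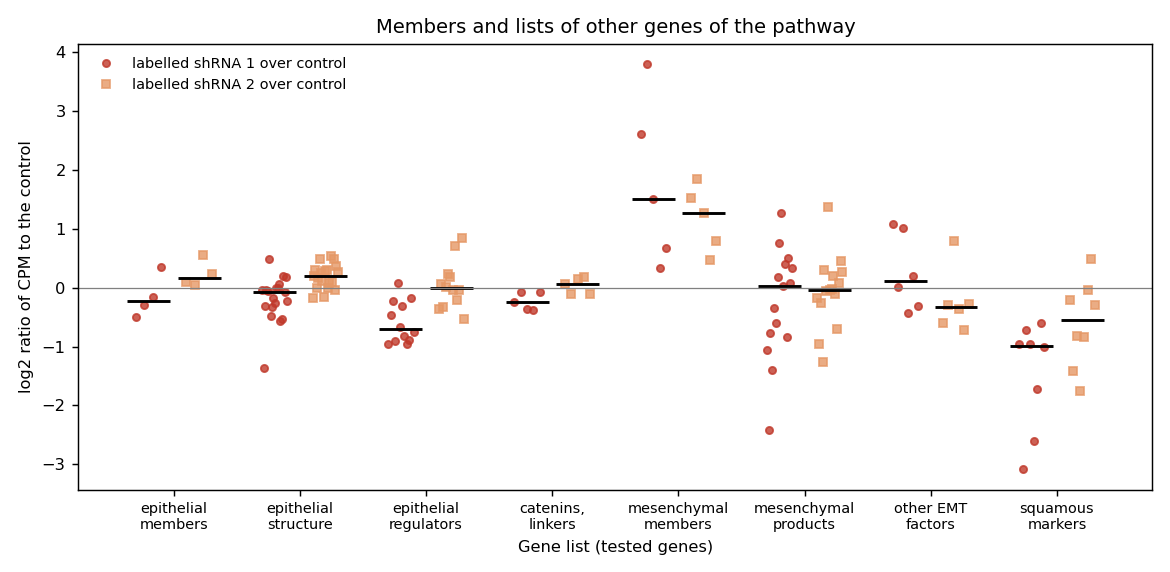
Log2 ratio of CPM to the control for each tested gene of the member sets and of 6 lists, in the shRNA 1- and shRNA 2-labelled libraries, with medians as black lines. In the shRNA 1-labelled library the medians are 1.5 for mesenchymal members, 0.02 for mesenchymal products and -0.99 for squamous markers, and in the shRNA 2-labelled library they are 1.26, -0.05 and -0.56 for the same lists.

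Markers of other cell types were low. The 6 fibroblast markers summed to 9.47 and 13.7 CPM in the shRNA 1- and shRNA 2-labelled libraries, against 16 CPM in the control, nearly all from COL1A1, while COL1A2, DCN and LUM had no count in any library. The 3 endothelial markers summed to 0.921 and 5.81 CPM in the shRNA 1- and shRNA 2-labelled libraries, against 3.71 CPM in the control, with PECAM1 at 0 counts in the shRNA 1-labelled library, 1 in the shRNA 2-labelled library and 0 in the control. The 3 leukocyte markers summed to at most 0.23 CPM in any library. The fibroblast sum thus follows COL1A1 in the main, and whether other cell types contribute to the level of VIM was not tested.

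By pattern over the 3 libraries, the genes nearest to VIM among 12013 with a symbol and a mean of at least 5 CPM were COL5A1, MANCR, TLR4, CCDC88A and GLI2. Nearness is the Euclidean distance between pairs of log2 ratios. It ran from 1.31 for COL5A1 to 2.27 for GLI2, so none matched VIM closely. In the shRNA 1-labelled library the log2 ratio of VIM, 3.79, was the highest of all tested genes, so every gene compared with it lay lower there. COL5A1 had log2 ratios of 2.5 and 2.05 in the shRNA 1- and shRNA 2-labelled libraries, and GLI2 of 1.88 and 0.61. Nearest to ESRP1 were WDR45, USP18, CLIC4, TENT5A and LMO7, at distances from 0.01 to 0.02. With only 3 libraries many genes share such a pattern.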

How the data were processed

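Per the file headers, the authors counted reads per gene with featureCounts 1.6.4 against an hg38 annotation, with the strand option set to 1, and deposited raw counts for 60554 genes. The submitters' processing notes instead name TopHat2, HTSeq and hg19. Coordinates equal those of GENCODE 29 for all 52179 identifiers found there with an equal version, so positions are in hg38. TPM was computed from the counts and from the exonic length that the deposited table lists for each gene. Symbols were found for 56558 identifiers.

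Analysis used R 4.3.3 and edgeR 4.0.16. The filterByExpr function with a minimum count of 10 kept 17801 genes, which were scaled by TMM. A two-sided quasi-likelihood F test set the shRNA lines together against the control, and p-values were adjusted over all genes tested, with a threshold of 0.05. The fit has 1 residual degree of freedom, from the difference between the 2 shRNA lines, and no line was repeated. Beside it stand 8.35 prior degrees of freedom, so each gene's p-value and SE rest mostly on a variance trend over all genes. That trend also comes from how far the 2 shRNA lines differ from each other. The SE is the log2 fold change over the square root of F. Per-library log2 ratios were taken on log-CPM values, the prior count being 2. Intervals at 95% are exact Poisson for levels and exact conditional for ratios (scipy 1.17.1). The fit was also run on simulated counts in which every library followed that same variance trend. That run therefore cannot show whether a lone control varies like the shRNA lines. Alternatives were RLE scaling, total counts, no filter, DESeq2 1.42.0, the likelihood ratio test, a prior count of 0.5 and leaving out each shRNA line.

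The members and lists were chosen with earlier results of these data known. Named genes are all members, genes whose exons overlap theirs, the target and its host, up to 4 genes of each list by the size of the mean log2 ratio (mean level 1 CPM or more), and the 5 genes nearest to VIM and to ESRP1. MIR200CHG, SNAI1, TWIST2, KRT5, PECAM1, NES and genes named for having no count fall outside that rule and were chosen after their values were seen. Of the genes that rule takes, 2 are not reported here.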

Additional observations from a re-analysis of the deposited data

How the results depend on the processing

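Without the filter on low counts, 4 genes were called higher and 37 lower by the quasi-likelihood test. DESeq2 called 1 higher and 14 lower, edgeR's likelihood ratio test called 2 and 36, and RLE scaling left 0 and 0. Of the listed genes other than members, the test without a filter and the likelihood ratio test each called 1 lower, FGFR2. The cause was not tested. For the epithelial members, the median log2 ratio averaged over both shRNA libraries was -0.03. The median of the members' mean log2 ratios over the pair was instead 0.04, so the sign depends on the order of averaging. With 1 library left, the median was 0.17 without the library labelled shRNA 1 and -0.22 without that labelled shRNA 2. In the same way CDH1, at -0.20 on average, ran from -0.495 to 0.10, CDH3, at -0.12, from -0.29 to 0.048 and ESRP1, at 0.20, from -0.15 to 0.56. CDH1 and CDH3 turned positive without shRNA 1, and ESRP1 turned negative without shRNA 2. The median of the mesenchymal members that passed the filter stayed between 1.26 and 1.5. The ratio of CDH1 to CDH2, 75.3 on average over the shRNA libraries, ran from 35.3 to 115.2. RLE scaling or total counts moved no member's log2 ratio by more than 0.02, and a prior count of 0.5 moved none by more than 0.07. With 1 shRNA line left out no residual degree of freedom remained, so no count of calls was made. No paired analysis was possible because the groups share fewer than 2 replicate numbers. Depth limits ZEB1, with 18 counts in the control, and ZEB2, for which a difference was not detectable.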
